A study of Mus musculus with 9 samples.

Results

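Transcripts of 32 genes for ion channels, pumps and gap junction proteins of the heart were followed in RNA-seq read counts from the heart apex of male wildtype C57BL/6J mice. The members were taken by gene symbol from a list of 32 names, and all 32 were found among the 13192 genes of the deposited count table, so none was absent. By function they comprised 2 sodium channel genes, 14 potassium channel genes, 6 calcium channel genes, 4 pacemaker and TRP channel genes, 3 pump and exchanger genes and 3 connexin genes. The AAV-Osm group, with 5 libraries, came from mice given adeno-associated virus (AAV) carrying oncostatin M, a cytokine of the interleukin-6 family. The AAV-Null group, with 4 libraries, came from mice given the control virus. Both groups received 1e+11 viral particles in the right gastrocnemius, a leg muscle, at 10 weeks of age, and hearts were taken 12 weeks later. The virus was thus placed in a leg muscle and the heart was read out, and the sources used here do not say which cells carried the transgene. The comparison asked whether the heart's transcripts differed after the oncostatin M virus, in a study about dysfunction of the heart, loss of muscle and fibrosis.

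The heartbeat depends on ion channels that open in sequence. Sodium channels start the action potential, L-type calcium channels hold the plateau and let in the calcium that starts contraction, and several potassium currents end the action potential and set the resting potential. The sodium pump and the sodium-calcium exchanger restore the ion gradients, pacemaker channels set the rhythm in nodal tissue, and connexins form the gap junctions through which current passes from cell to cell. In the mouse ventricle, repolarisation is fast and rests mainly on transient outward potassium currents, whereas the delayed rectifiers known from human hearts have a smaller part.

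The 9 libraries held 11841106 to 24551980 counts over named genes in AAV-Osm and 18594875 to 30625134 in AAV-Null. Whether every library is a separate mouse is not stated outright in the labels, and p-values here describe only the spread among the 9 libraries, which may be partly technical. Ventricular cardiomyocyte markers were present at 82565 to 110374 summed CPM (counts per library, scaled for its depth) in AAV-Osm and 81905 to 107375 in AAV-Null, with 9 of 9 listed markers found. AAV-Null libraries 3 and 4 stood apart from AAV-Null libraries 1 and 2. Genes with 6000 or more exonic bases took 9.07, 10.01, 10.34, 11.04 and 10.20% of the counts in AAV-Osm 1 to 5, against 11.77, 11.06, 8.38 and 8.23% in AAV-Null 1 to 4.

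None of the 32 genes differed between the AAV-Osm and AAV-Null groups past the threshold. With edgeR's quasi-likelihood test and Benjamini-Hochberg adjustment over 13192 genes, 0 of 32 had an adjusted p under 0.05, where 0.121% of all genes did (0.0834% higher and 0.0379% lower in AAV-Osm), and the smallest adjusted p among them was 0.883. At an unadjusted p under 0.05 the count was also 0 of 32, against 5.97% of all genes. The count past the adjusted threshold was also 0 of 32 in DESeq2, against 0.402% of all genes, 0 of 32 in limma-voom, against 0.0985%, and 0 of 32 in limma-voom with sample quality weights, against 1.29%. At an unadjusted p under 0.05 the last of these gave 5 of 32, against 25.2% of all genes, and DESeq2 and limma-voom without weights gave 0. In CPM, 0 of 32 genes had groups that did not overlap, against 2.28% of all genes. The log2 fold changes, AAV-Osm over AAV-Null, ran from -0.30 for Kcna5 to 0.52 for Scn4a with a median of 0.10, beside a median of 0.01 over all genes. They were above 0 for 23 genes and below 0 for 9, and 51.9% of all genes were above 0. Without AAV-Null 3 and 4 they were above 0 for 11 genes and below 0 for 21, against 51.8% above 0 among all genes. In bulk tissue, fewer cells of a type and less RNA per cell cannot be told apart.

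The intervals give the range of differences that these 9 libraries allow. For 22 of the 32 genes the 95% interval of the fold change lay within 1.5-fold in either direction, against 51.6% of all genes. By class this held for 1 of 2 sodium channel genes, 10 of 14 potassium channel genes, 4 of 6 calcium channel genes, 2 of 4 pacemaker and TRP channel genes, 3 of 3 pump and exchanger genes and 2 of 3 connexin genes. The 10 genes with wider intervals were Scn4a, Kcnd3, Kcnj3, Kcna5, Kcnv2, Cacna1c, Cacna1s, Hcn4, Trpm7 and Gja5.

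**Figure D1:**
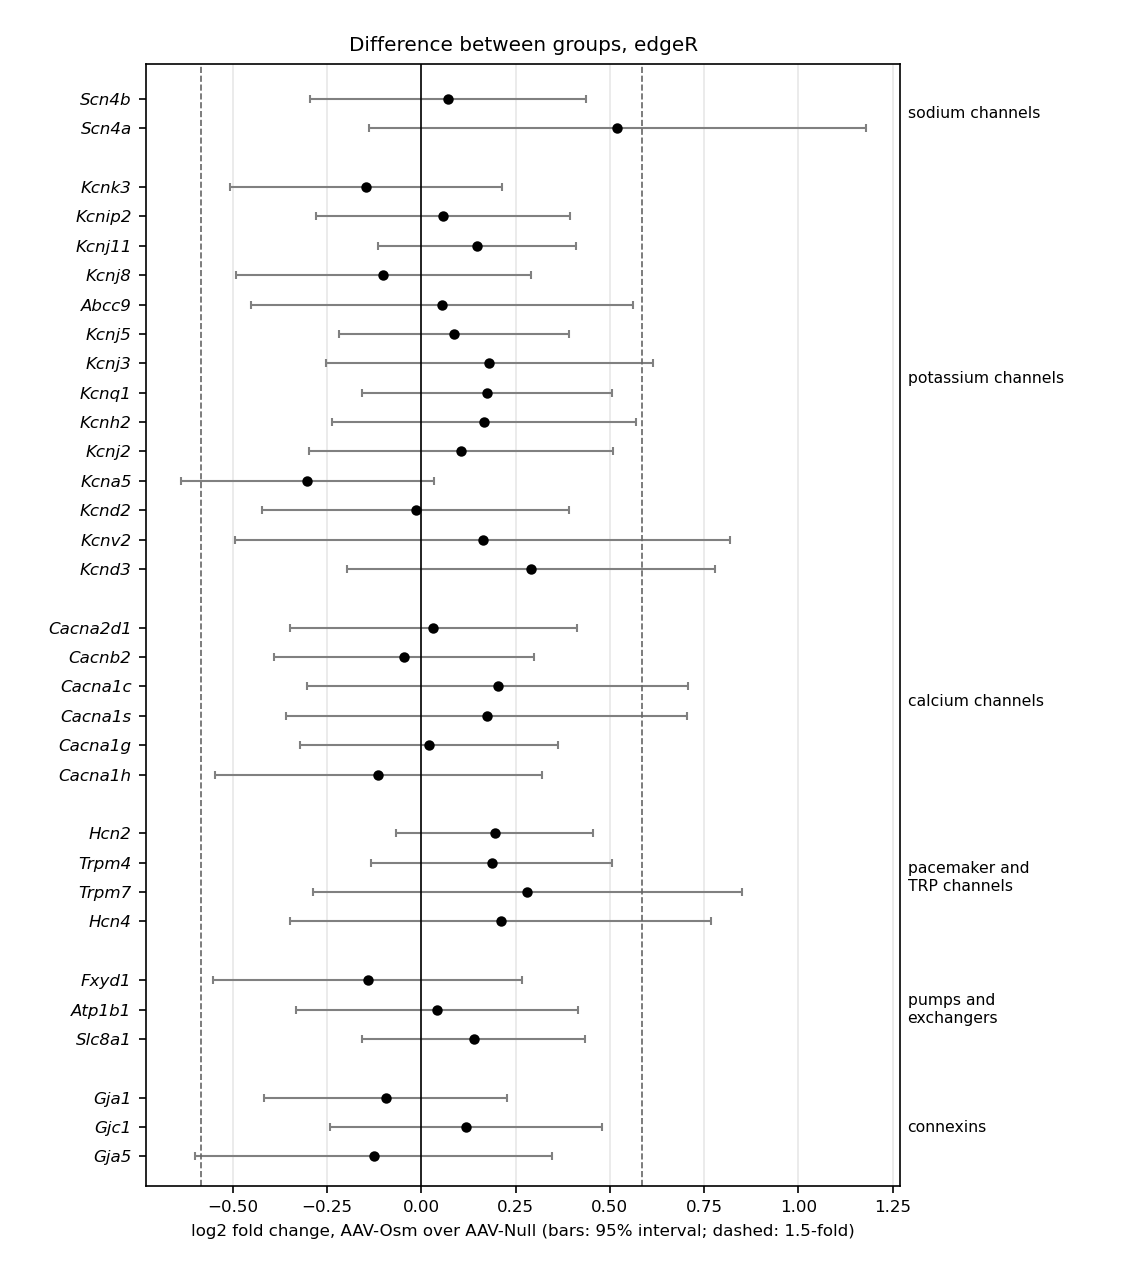
Log2 fold change of each of the 32 genes, AAV-Osm over AAV-Null, with its 95% interval from edgeR, grouped by class; the dashed lines mark 1.5-fold in either direction. Every interval spans 0, and the intervals of Scn4a (-0.14 to 1.18) and Kcnv2 (-0.49 to 0.82) are among the widest.

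Levels per length ranged widely among the genes. In RPKM (CPM per kilobase of the gene's exons), averaged over the 9 libraries, Fxyd1 was highest at 739 and Kcnk3 followed at 150. Gja1, Kcnip2, Kcnj11 and Atp1b1 lay at 91.3, 68.3, 63.3 and 55.7 RPKM. Between 21.1 RPKM (Scn4b) and 5.56 RPKM (Cacna1c) lay, in falling order, Kcnj8, Cacna2d1, Abcc9, Slc8a1, Kcnj5, Kcnj3, Kcnq1, Kcnh2, Hcn2, Cacnb2, Kcnj2 and Trpm4. The remaining members were below 5 RPKM, and Hcn4 was lowest at 0.21. These are levels of RNA per exon length and not of protein or current.

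**Figure D2:**
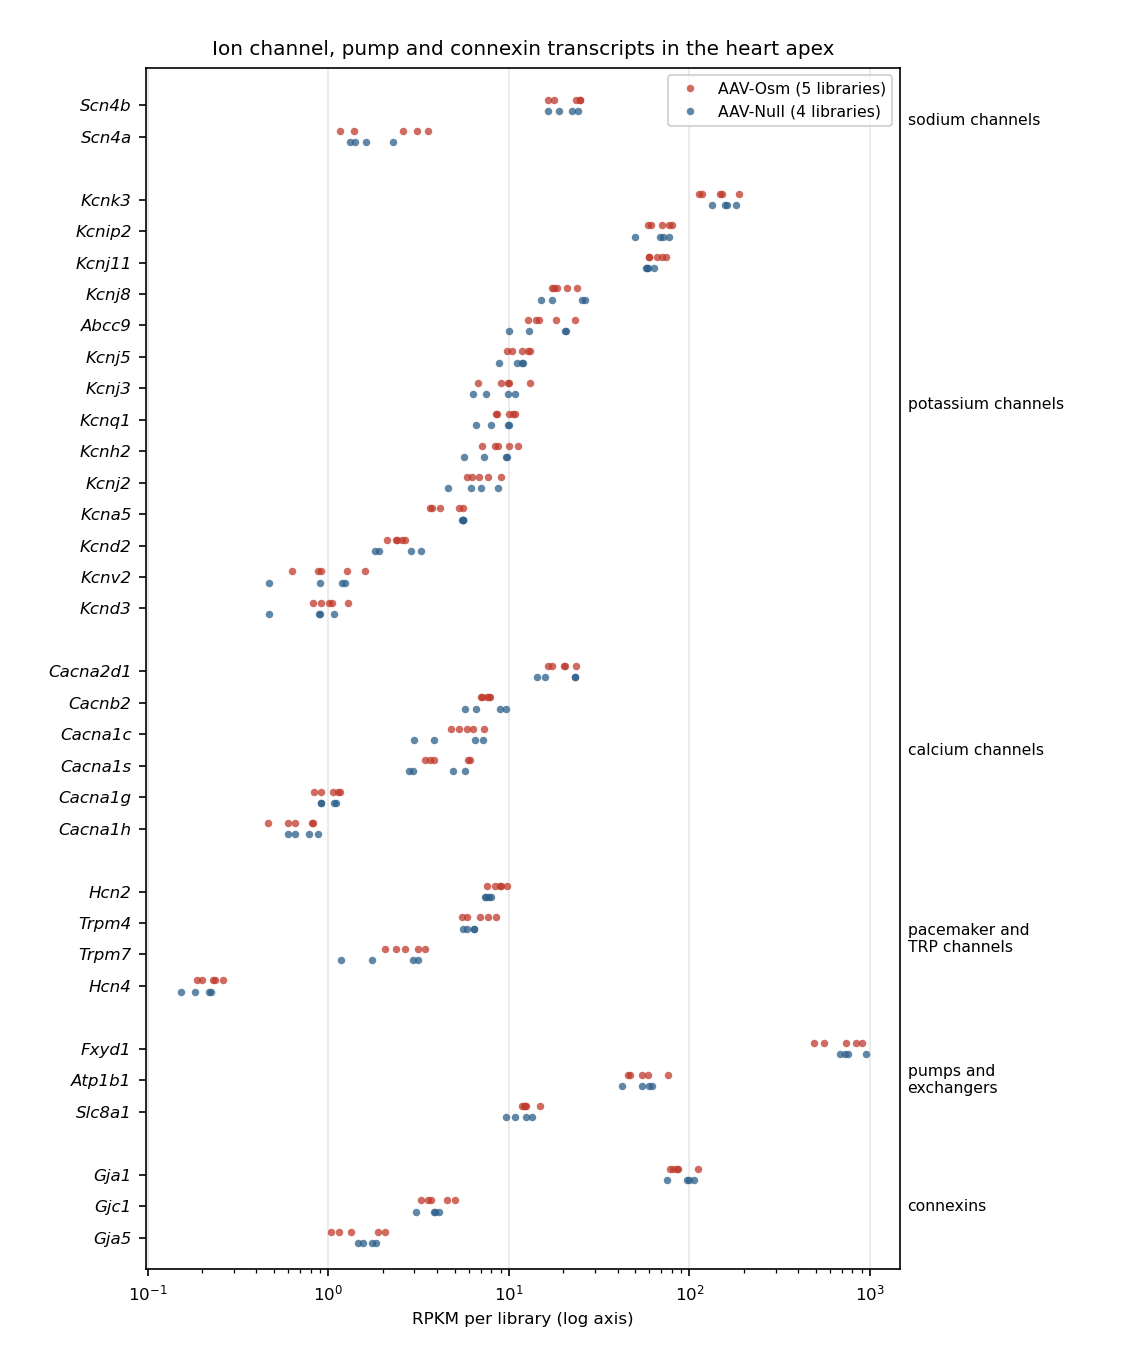
RPKM of each gene in each of the 5 AAV-Osm and 4 AAV-Null libraries on a log axis, by class and in falling order of mean level. Fxyd1 tops the list and Hcn4 is at its foot, and the points of the AAV-Osm and AAV-Null libraries overlap for every gene.

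The sodium channel genes were Scn4a, which encodes the pore-forming subunit known best from skeletal muscle, and Scn4b, which encodes an auxiliary beta subunit. Scn4a (chr11:106318593-106349390, minus strand, mm10) had the largest fold change among the 32 genes. Its levels were 23.6, 17.1, 20.5, 7.66 and 9.16 CPM in AAV-Osm 1 to 5, against 9.32, 8.73, 10.7 and 15.0 CPM in AAV-Null 1 to 4. Libraries AAV-Osm 1 to 3 lay above every AAV-Null library, whereas AAV-Osm 4 and 5 lay among or below the lowest of them, so the groups overlapped. The means were 15.6 ± 6.96 CPM in AAV-Osm and 10.9 ± 2.81 CPM in AAV-Null (SD, n = 5 and 4), and the log2 fold change was 0.52 (SE 0.31, 95% interval -0.14 to 1.18, adjusted p = 0.914, edgeR). With 1 library left out it ran from 0.32 (without AAV-Osm 1) to 0.71 (without AAV-Null 4). Without AAV-Null 3 and 4 it was 0.80, and without AAV-Null 4 and AAV-Osm 5 together it was 0.85 with an adjusted p of 0.456 by edgeR. In that last setting 2 of the 32 genes, Scn4a and Gja1, had an unadjusted p under 0.05, against 8.83% of all genes. For Scn4a, AAV-Null 4 was the highest AAV-Null library, AAV-Null 3 came next, and AAV-Osm 5 lay below the AAV-Osm mean. Leaving out either pair raises its fold change by construction, so no conclusion is drawn from those values. Scn4b (chr9:45139042-45154061, plus strand) was at 91.3 ± 17.4 CPM in AAV-Osm and 87.0 ± 14.9 CPM in AAV-Null, with libraries from 70.0 to 106 CPM in AAV-Osm and 69.6 to 103 CPM in AAV-Null. Its interval, -0.29 to 0.44, lay within 1.5-fold.

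The gene with the largest fold change is shown with the 250 bases before its RefSeq start site (GRCm38.p6, chr11:106349391-106349640, minus strand). None of the 3 motifs searched was found there: the STAT site TTCNNNGAA, which STAT factors downstream of gp130 receptors are known to bind, the E-box CACGTG and the D-box TTATGTAA of clock factors, each read on both strands.
Scn4a: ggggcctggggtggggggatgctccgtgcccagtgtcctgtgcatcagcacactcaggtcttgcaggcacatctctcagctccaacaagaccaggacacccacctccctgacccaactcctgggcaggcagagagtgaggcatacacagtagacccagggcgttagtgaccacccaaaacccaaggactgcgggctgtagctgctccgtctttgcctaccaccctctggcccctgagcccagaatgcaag

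The potassium channel genes were described by the current they carry, and 0 of the 14 passed the threshold in edgeR, with 0 at an unadjusted p under 0.05. The transient outward current is carried by the pore subunits encoded by Kcnd2 and Kcnd3 with the accessory calcium-binding subunit encoded by Kcnip2. Kcnip2 (chr19:45792346-45816063) was at 147, 152, 175, 200 and 192 CPM in AAV-Osm, against 177, 193, 171 and 124 CPM in AAV-Null. Kcnd2 (chr6:21216109-21729805) was at 11.0 ± 0.939 CPM in AAV-Osm and 11.2 ± 3.21 CPM in AAV-Null, and Kcnd3 (chr3:105452330-105674002) at 7.32 ± 1.25 CPM in AAV-Osm and 6.00 ± 1.85 CPM in AAV-Null. For all 3 the lowest library was AAV-Null 4. The log2 fold changes were 0.06 (SE 0.16) for Kcnip2, -0.02 (SE 0.19) for Kcnd2 and 0.29 (SE 0.23) for Kcnd3, with the interval of Kcnd3 reaching from -0.20 to 0.78. Per length, Kcnd2 exceeded Kcnd3 by a ratio of 2.44 ± 0.412 in AAV-Osm and 3.06 ± 0.717 in AAV-Null, and Kcnip2 exceeded Kcnd2 by 28.6 ± 3.06 in AAV-Osm and 28.1 ± 5.82 in AAV-Null. These ratios overlapped between the groups.

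Inward rectifier genes came next. Kcnj2 encodes the channel that holds the resting potential of ventricular muscle, and it stood at 33.8, 37.2, 31.9, 49.4 and 41.7 CPM in AAV-Osm, against 38.1, 47.3, 33.8 and 25.0 CPM in AAV-Null. The log2 fold change of Kcnj2 was 0.11 (SE 0.19, 95% interval -0.30 to 0.51). Kcnj3 and Kcnj5 encode the subunits of the channel opened by acetylcholine, known mainly from atria and nodes. Kcnj3 was at 51.0 ± 11.9 CPM in AAV-Osm and 45.0 ± 10.9 CPM in AAV-Null. Kcnj5 was at 52.0 ± 6.48 CPM in AAV-Osm and 49.0 ± 6.64 CPM in AAV-Null. The atrial myosin light chain gene Myl7 was at 0.24 to 3.14 CPM in AAV-Osm and 2.86 to 11.1 CPM in AAV-Null, and the summed atrial markers, 4 of 7 found, ran from 324 to 788 CPM in AAV-Osm and 284 to 544 CPM in AAV-Null, mostly from Nppa. The part of atrial tissue in the levels of Kcnj3 and Kcnj5 was not tested. An antisense transcript shares 31.1% of the exonic bases of Kcnj3, and since the labels do not give the strand setting, reads of the 2 genes may be mixed.

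The channel that couples potassium flow to cellular ATP has its pore from Kcnj11 or Kcnj8 and its sulphonylurea receptor, in the heart's ventricle and vessels, from Abcc9. Kcnj11 (chr7:46097123-46100764), the pore of heart muscle, was at 194, 240, 230, 195 and 216 CPM in AAV-Osm, against 190, 188, 206 and 192 CPM in AAV-Null, with AAV-Osm 2, 3 and 5 above every AAV-Null library. Its log2 fold change was 0.15 (SE 0.12, 95% interval -0.12 to 0.41, adjusted p = 0.942, edgeR). Kcnj8, whose product is known from vascular mural cells, was at 52.1, 46.0, 40.3, 38.8 and 37.7 CPM in AAV-Osm, against 33.0, 37.8, 55.6 and 58.1 CPM in AAV-Null. The AAV-Null libraries of Kcnj8 split, with AAV-Null 3 and 4 above every AAV-Osm library and AAV-Null 1 and 2 level with the lowest AAV-Osm libraries or below them. Summed markers of pericytes and smooth muscle, 11 of 11 found, were 275 to 340 CPM in AAV-Osm, against 393, 363, 328 and 325 CPM in AAV-Null 1 to 4. Within that list the smooth muscle actin gene Acta2 followed the sum, at 133, 122, 75.4 and 53.6 CPM in AAV-Null 1 to 4. The pericyte gene Vtn was instead higher in AAV-Null 3 and 4, as Kcnj8 was, at 36.3, 34.5, 43.2 and 51.4 CPM. So was Higd1b, at 12.0, 11.6, 14.2 and 22.4 CPM. Other genes of the list did not follow Kcnj8. Pdgfrb (30.4, 36.7, 28.4 and 23.0 CPM) and Notch3 (27.7, 29.2, 18.7 and 19.8 CPM) were lower in AAV-Null 3 and 4. Cspg4 did not split in this way. The part of pericytes and smooth muscle in the Kcnj8 levels was not tested. Abcc9 was at 110, 106, 96.6, 137 and 176 CPM in AAV-Osm, against 155, 156, 97.1 and 75.6 CPM in AAV-Null, a spread of 1.82-fold within AAV-Osm and 2.06-fold within AAV-Null, and its log2 fold change was 0.05 (SE 0.23). Per length, Kcnj11 exceeded Kcnj8 by 3.42 ± 0.550 in AAV-Osm and 2.99 ± 0.761 in AAV-Null.

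Of the repolarising and leak channels, Kcna5, which encodes a delayed rectifier subunit of fast activation, had the smallest p of the 32 genes. Kcna5 (chr6:126532551-126535555, minus strand) was at 16.7, 15.9, 12.6, 11.0 and 11.3 CPM in AAV-Osm, against 16.7, 16.7, 16.5 and 16.8 CPM in AAV-Null. The AAV-Null libraries lay within 0.134 CPM (SD) of 16.7 CPM, closer together than counting alone would give (0.847 CPM), and AAV-Osm 1 stood level with them while the other AAV-Osm libraries were lower. The log2 fold change was -0.30 (SE 0.16, 95% interval -0.64 to 0.03, adjusted p = 0.883, edgeR). Kcna5 rested on 126 to 420 counts per library in AAV-Osm and 334 to 502 in AAV-Null. Without AAV-Osm 1 its log2 fold change was -0.39 and without AAV-Osm 2 it was -0.37, each with an unadjusted p under 0.05 but an adjusted p of 0.986 and 0.9998 in edgeR.

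Kcnk3, which encodes an acid-sensitive leak channel, was the most abundant channel gene per length, at 429, 581, 564, 713 and 449 CPM in AAV-Osm, against 619, 604, 508 and 692 CPM in AAV-Null. Its log2 fold change was -0.15 (SE 0.17, 95% interval -0.51 to 0.21). Kcnq1 and Kcnh2 encode the slow and rapid delayed rectifiers that long QT syndromes are known for. Kcnq1 was at 29.4 ± 3.35 CPM in AAV-Osm and 26.1 ± 4.92 CPM in AAV-Null, and Kcnh2 at 42.2 ± 7.43 CPM in AAV-Osm and 37.6 ± 9.45 CPM in AAV-Null. Kcnv2, which encodes a modifier subunit that forms no channel by itself, was at 5.36 ± 1.91 CPM in AAV-Osm and 4.82 ± 1.79 CPM in AAV-Null, with a wide interval of -0.49 to 0.82. Among the potassium channel genes as a class, 10 of 14 had a log2 fold change above 0 with a median of 0.10, against the 0.01 of all genes. Without AAV-Null 3 and 4 the direction turned, with 4 of 14 above 0 and a median of -0.10.

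The promoter windows of 2 genes of this class are shown, that of Kcna5 for the smallest p (GRCm38.p6, chr6:126535556-126535805, minus strand, none of the motifs) and that of Kcnj2 for its E-box in capitals, 84 bases before the start site (chr11:111065914-111066163, plus strand).
Kcna5: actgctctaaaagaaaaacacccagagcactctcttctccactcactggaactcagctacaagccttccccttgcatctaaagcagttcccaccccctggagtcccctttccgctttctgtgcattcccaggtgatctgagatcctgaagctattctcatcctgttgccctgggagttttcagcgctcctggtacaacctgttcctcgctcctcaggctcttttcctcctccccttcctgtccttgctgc
Kcnj2: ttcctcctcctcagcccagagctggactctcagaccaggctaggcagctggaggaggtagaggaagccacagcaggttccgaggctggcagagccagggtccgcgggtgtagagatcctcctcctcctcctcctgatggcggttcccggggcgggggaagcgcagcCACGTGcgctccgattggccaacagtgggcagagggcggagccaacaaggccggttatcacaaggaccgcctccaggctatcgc

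The L-type calcium channel of ventricular muscle has its pore from Cacna1c and auxiliary subunits from Cacnb2 and Cacna2d1. Cacna1c (chr6:118587240-119196409) was at 86.2, 78.0, 71.0, 93.4 and 107 CPM in AAV-Osm, against 106, 96.1, 57.0 and 44.1 CPM in AAV-Null. The AAV-Null libraries spread over 2.40-fold and enclosed all AAV-Osm values but the highest, with AAV-Null 1 and 2 high and AAV-Null 3 and 4 low. The log2 fold change was 0.20 (SE 0.23, 95% interval -0.30 to 0.71) with all libraries and -0.21 without AAV-Null 3 and 4. For Cacnb2 the log2 fold change was -0.05 (SE 0.16) with all libraries and -0.32 without AAV-Null 3 and 4. It was at 31.2 to 35.1 CPM in AAV-Osm and 25.4 to 43.2 CPM in AAV-Null, a spread of 1.13-fold in AAV-Osm and 1.70-fold in AAV-Null. AAV-Null 3 and 4 were the low AAV-Null libraries for Cacnb2 as for Cacna1c. Leaving them out lowers both fold changes by construction, so no conclusion is drawn from those shifts. Cacna2d1 was at 123 to 177 CPM in AAV-Osm and 108 to 174 CPM in AAV-Null. Per length, Cacna2d1 exceeded Cacna1c by 3.36 ± 0.507 in AAV-Osm and 3.93 ± 0.688 in AAV-Null, and Cacnb2 exceeded it by 1.30 ± 0.251 in AAV-Osm and 1.59 ± 0.286 in AAV-Null.

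Cacna1s encodes the L-type pore known from skeletal muscle, and Cacna1g and Cacna1h encode the T-type pores, which in adult hearts are known mainly from the conduction system. Cacna1s (chr1:136052901-136119822, plus strand) was at 23.0, 38.2, 37.3, 21.6 and 24.0 CPM in AAV-Osm, against 18.5, 17.6, 30.5 and 35.6 CPM in AAV-Null. It differed from Cacna1c in pattern: AAV-Null 3 and 4, the low libraries for Cacna1c, were the high AAV-Null libraries for Cacna1s. The ratio of Cacna1c to Cacna1s per length was 1.40 ± 0.525 in AAV-Osm and 1.51 ± 0.993 in AAV-Null, with 2.42, 2.31, 0.792 and 0.525 in AAV-Null 1 to 4. The log2 fold change of Cacna1s was 0.17 (SE 0.25, 95% interval -0.36 to 0.71), and 0.67 without AAV-Null 3 and 4 (adjusted p = 0.438, edgeR). Leaving out its high AAV-Null libraries raises the fold change by construction, so no conclusion is drawn from that value. An antisense transcript shares 19.4% of the exonic bases of Cacna1s. Cacna1g was at 8.36 ± 1.15 CPM in AAV-Osm and 8.22 ± 0.867 CPM in AAV-Null, and Cacna1h at 5.51 ± 1.24 CPM in AAV-Osm and 5.98 ± 1.03 CPM in AAV-Null.

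Other markers of skeletal muscle were read beside Scn4a and Cacna1s. Of 12 skeletal muscle markers 8 were in the table, summing to 372 to 651 CPM in AAV-Osm and 247 to 743 CPM in AAV-Null. Most of that sum was Acta1, the skeletal actin gene that heart muscle is known to express as well. Myl1, another light chain gene, was at 21.5 to 39.3 CPM in AAV-Osm and 26.8 to 51.3 CPM in AAV-Null. The other 6 markers in the table were each at no more than 3.13 CPM in any library. Mylpf, a fast light chain gene, was at most 1.74 CPM in AAV-Osm and 1.81 CPM in AAV-Null. Actn3, the fast-fibre actinin gene, was at 0 in AAV-Osm 4 and at most 0.705 CPM in AAV-Osm and 3.13 CPM in AAV-Null. The part of skeletal muscle RNA in the levels of Scn4a and Cacna1s was not tested. In AAV-Osm, Scn4a and Cacna1s were together high in libraries 2 and 3, whereas AAV-Osm 1 was highest for Scn4a and not for Cacna1s.

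**Figure D3:**
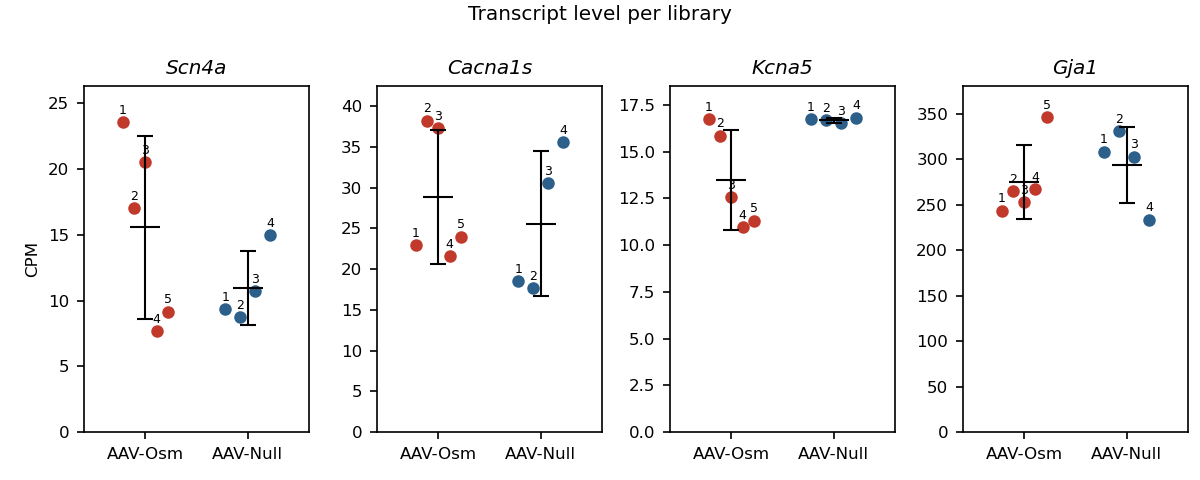
CPM of Scn4a, Cacna1s, Kcna5 and Gja1 in the AAV-Osm libraries (left, numbered 1 to 5) and AAV-Null libraries (right, numbered 1 to 4), with mean and SD as bars. Scn4a in AAV-Osm splits into 3 high and 2 low libraries, and the 4 AAV-Null libraries of Kcna5 lie together near 16.7 CPM.

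Of the calcium channel promoters, an internal start site of Cacna1c is shown, since it was the only window of a member with the STAT site, in capitals, 115 bases before the start (GRCm38.p6, chr6:118757975-118758224, minus strand). The STAT site stood in 7.02% of the 32851 windows of 250 bases before RefSeq start sites and in 1 of the 27 windows of the 24 members that had an entry. The match is a description of letters and not of binding.
Cacna1c: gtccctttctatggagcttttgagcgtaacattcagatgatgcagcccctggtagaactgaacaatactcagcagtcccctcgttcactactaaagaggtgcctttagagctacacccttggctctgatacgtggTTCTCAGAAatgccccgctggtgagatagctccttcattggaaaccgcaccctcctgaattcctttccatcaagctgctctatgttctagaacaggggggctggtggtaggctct

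Of the pacemaker and TRP channel genes, Hcn2 and Hcn4 encode the channels of the pacemaker current, Hcn4 being the main form of the sinus node. Hcn2 (chr10:79716634-79736108) was at 26.6, 29.0, 31.2, 24.3 and 28.4 CPM in AAV-Osm, against 25.6, 23.5, 23.9 and 24.7 CPM in AAV-Null. AAV-Osm 1, 2, 3 and 5 lay above every AAV-Null library and AAV-Osm 4 lay among them. The log2 fold change was 0.19 (SE 0.12, 95% interval -0.07 to 0.46, adjusted p = 0.923, edgeR). Hcn4 (chr9:58823512-58860955) was at 0.712 to 0.996 CPM in AAV-Osm and 0.576 to 0.852 CPM in AAV-Null, which were only 10 to 25 counts per library in AAV-Osm and 14 to 21 in AAV-Null. At that depth its interval reached from -0.35 to 0.77. Per length, Hcn2 exceeded Hcn4 by 39.8 ± 7.04 in AAV-Osm and 40.1 ± 6.13 in AAV-Null. Summed markers of the conduction system other than Hcn4 and Cacna1g ran from 77.4 to 98.7 CPM in AAV-Osm and 65.7 to 112 CPM in AAV-Null, with 6 of 9 listed markers found. The sum held 4 genes and came mostly from Smoc2, at 48.5 to 83.0 CPM over the 9 libraries.

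Trpm4 encodes a cation channel opened by intracellular calcium, and Trpm7 a channel joined to a kinase that passes magnesium and other divalent ions. Trpm4 was at 29.2 ± 5.22 CPM in AAV-Osm and 25.7 ± 1.74 CPM in AAV-Null. Trpm7 (chr2:126791558-126876261) was at 24.6, 16.9, 14.7, 19.1 and 22.5 CPM in AAV-Osm, against 21.2, 22.5, 12.4 and 8.36 CPM in AAV-Null. As for Cacna1c, AAV-Null 3 and 4 were the lowest of all 9 libraries for Trpm7. Its log2 fold change was 0.28 (SE 0.26, 95% interval -0.29 to 0.85) with all libraries and -0.16 without AAV-Null 3 and 4. Leaving out these lowest libraries lowers the fold change by construction, so no conclusion is drawn from that shift. All 4 genes of the class had a log2 fold change above 0, with a median of 0.20, and 3 of 4 had without AAV-Null 3 and 4.

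The promoter of Trpm7 held an E-box, in capitals, 25 bases before the start site (GRCm38.p6, chr2:126876262-126876511, minus strand). The E-box was found in 6.02% of all windows and in 2 of the members' 27, those of Kcnj2 and Trpm7, while the D-box was found in 0.819% of all windows and in 0 of the members'.
Trpm7: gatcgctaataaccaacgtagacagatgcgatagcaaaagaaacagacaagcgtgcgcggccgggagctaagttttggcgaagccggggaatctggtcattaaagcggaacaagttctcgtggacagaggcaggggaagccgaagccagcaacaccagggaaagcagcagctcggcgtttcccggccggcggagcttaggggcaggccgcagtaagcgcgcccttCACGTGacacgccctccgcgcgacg

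The pump and exchanger genes all had intervals within 1.5-fold. Slc8a1, the sodium-calcium exchanger that removes calcium from the cardiomyocyte, was at 234, 228, 222, 279 and 230 CPM in AAV-Osm, against 234, 250, 203 and 180 CPM in AAV-Null. Its log2 fold change was 0.14 (SE 0.14, 95% interval -0.16 to 0.44). Atp1b1, the beta subunit of the sodium pump, was at 153, 142, 121, 118 and 197 CPM in AAV-Osm, against 155, 161, 142 and 110 CPM in AAV-Null, and 22.6% of its exonic bases are shared with Nme7 on the other strand. Fxyd1, phospholemman, which regulates the sodium pump when phosphorylated, was at 349, 526, 595, 645 and 398 CPM in AAV-Osm, against 538, 519, 488 and 675 CPM in AAV-Null. AAV-Osm 1 and 5 were the lowest of the 9 libraries for Fxyd1, and these were the highest of the 5 AAV-Osm libraries for Atp1b1. The log2 fold change was 0.04 (SE 0.17) for Atp1b1 and -0.14 (SE 0.19) for Fxyd1, and the ratio of Fxyd1 to Atp1b1 per length was 13.4 ± 5.57 in AAV-Osm and 14.8 ± 5.00 in AAV-Null.

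The connexin genes were led by Gja1, which encodes the main gap junction protein of the working ventricle. Gja1 (chr10:56377300-56390419, plus strand) was at 244, 265, 253, 268 and 347 CPM in AAV-Osm, against 308, 331, 303 and 234 CPM in AAV-Null. AAV-Osm 1 to 4 lay below AAV-Null 1 to 3, while AAV-Osm 5 was the highest of all 9 and AAV-Null 4 the lowest. With all libraries the log2 fold change was -0.10 (SE 0.15, 95% interval -0.42 to 0.23), and without AAV-Osm 5 and AAV-Null 4 it was -0.29 with an adjusted p of 0.555 by edgeR. Leaving out the highest AAV-Osm and the lowest AAV-Null library lowers the fold change by construction, so no conclusion is drawn from that shift. Gja5, the connexin gene of atria, conduction fibres and arterial endothelium, was at 6.54, 3.65, 4.23, 3.31 and 6.03 CPM in AAV-Osm, against 5.82, 4.65, 5.56 and 4.94 CPM in AAV-Null. Summed arterial endothelial markers, 8 of 8 found, were 91.9 to 111 CPM in AAV-Osm and 98.8 to 108 CPM in AAV-Null. Gjc1, the connexin gene of nodal tissue and smooth muscle, was at 11.7 ± 2.16 CPM in AAV-Osm and 10.8 ± 1.35 CPM in AAV-Null. Per length, Gja1 exceeded Gjc1 by 22.2 ± 2.72 in AAV-Osm and 25.4 ± 1.56 in AAV-Null, and exceeded Gja5 by 63.1 ± 17.0 in AAV-Osm and 57.9 ± 10.5 in AAV-Null.

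A single library held most of the lowest values. AAV-Null 4 held the lowest value of the 9 libraries for 18 of the 32 genes, and no other library did so for more than 4. The highest value fell in AAV-Osm 1 for 8 genes, in AAV-Osm 5 for 8 and in AAV-Osm 4 for 6. The lowest and highest libraries were not counted over all genes, so these counts are not read as particular to the members. For the 10 members with 6000 or more exonic bases, the median log2 level relative to the mean of the 9 libraries was -0.07, 0.03, 0.01, 0.12 and 0.04 in AAV-Osm 1 to 5, against 0.14, 0.13, -0.24 and -0.39 in AAV-Null 1 to 4. For all 1619 genes of that length in the table the same median was between -0.03 and 0.09 in AAV-Osm, against 0.13, 0.06, -0.19 and -0.22 in AAV-Null 1 to 4. The other 22 members were also low in AAV-Null 4, with a median of -0.32, against -0.12 in AAV-Null 3 and 0.10 and 0.09 in AAV-Null 1 and 2. Over all genes in the table under 6000 exonic bases, that median was -0.03, -0.03, -0.003 and -0.0003 in AAV-Null 1 to 4. Summed markers of some other cell types also set AAV-Null 4 apart. Its summed epicardial and mesothelial markers (8 of 8 found) were at 144 CPM, against 10.6 to 49.4 CPM in AAV-Osm and 47.1 to 61.0 CPM in the other AAV-Null libraries. Macrophage markers (10 of 10) were at 946 CPM in AAV-Null 4. They were at 471 to 667 CPM in AAV-Osm and 445 to 637 CPM in the other AAV-Null libraries. The sums of fibroblast markers (9 of 9) and endothelial markers (10 of 10) were also highest in AAV-Null 4, at 3376 and 1678 CPM. Dcn (1568 CPM) and Gsn (1247 CPM) made up most of that fibroblast sum, and Fabp4 (862 CPM) most of the endothelial sum. Single markers went both ways. Dpt (249 CPM) and Egfl7 (191 CPM) were the highest of the 9 libraries in AAV-Null 4. Lum (20.5 CPM), Tcf21 (5.92 CPM), Cdh5 (77.1 CPM) and Tek (20.4 CPM) were the lowest of the AAV-Null libraries there. Neuron and Schwann cell markers (7 of 10 found) were at 45.6 CPM in AAV-Null 4, against 27.3 to 39.5 CPM in AAV-Osm. The sum of ventricular cardiomyocyte markers was not low in AAV-Null 4: at 107375 CPM it was the highest of the AAV-Null libraries. Its single markers also went both ways. Myh6, Myl2, Myl3, Tnnt2 and Tnni3 were each the highest of the AAV-Null libraries there. Actc1 (5827 CPM) and Pln (2499 CPM) were the lowest of the 9 libraries in AAV-Null 4. Ryr2 and Mybpc3 lay within the range of the other AAV-Null libraries. Pericyte and smooth muscle markers, at 325 CPM, were the lowest of the AAV-Null libraries. Arterial endothelial markers, at 105 CPM, lay within the range of the other AAV-Null libraries. Liver-type markers (10 of 10) were at 59.2 to 140 CPM in AAV-Osm, against 51.8, 63.9, 282 and 233 CPM in AAV-Null 1 to 4. The part of gene length or of other cell types in the members' values was not tested. Without AAV-Null 3 and 4, the median log2 fold change of the 32 genes was -0.10, 16 of them took the opposite sign, and 0 passed the adjusted threshold in edgeR, against 0.121% of all genes. An unadjusted p under 0.05 was then found for 2 of the 32, Cacna1s and Cacnb2, against 9.99% of all genes. AAV-Null 3 and 4 were the high AAV-Null libraries for Cacna1s and the low ones for Cacnb2. Leaving them out moves both fold changes away from 0 by construction, so no conclusion is drawn from these p-values.

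**Figure D4:**
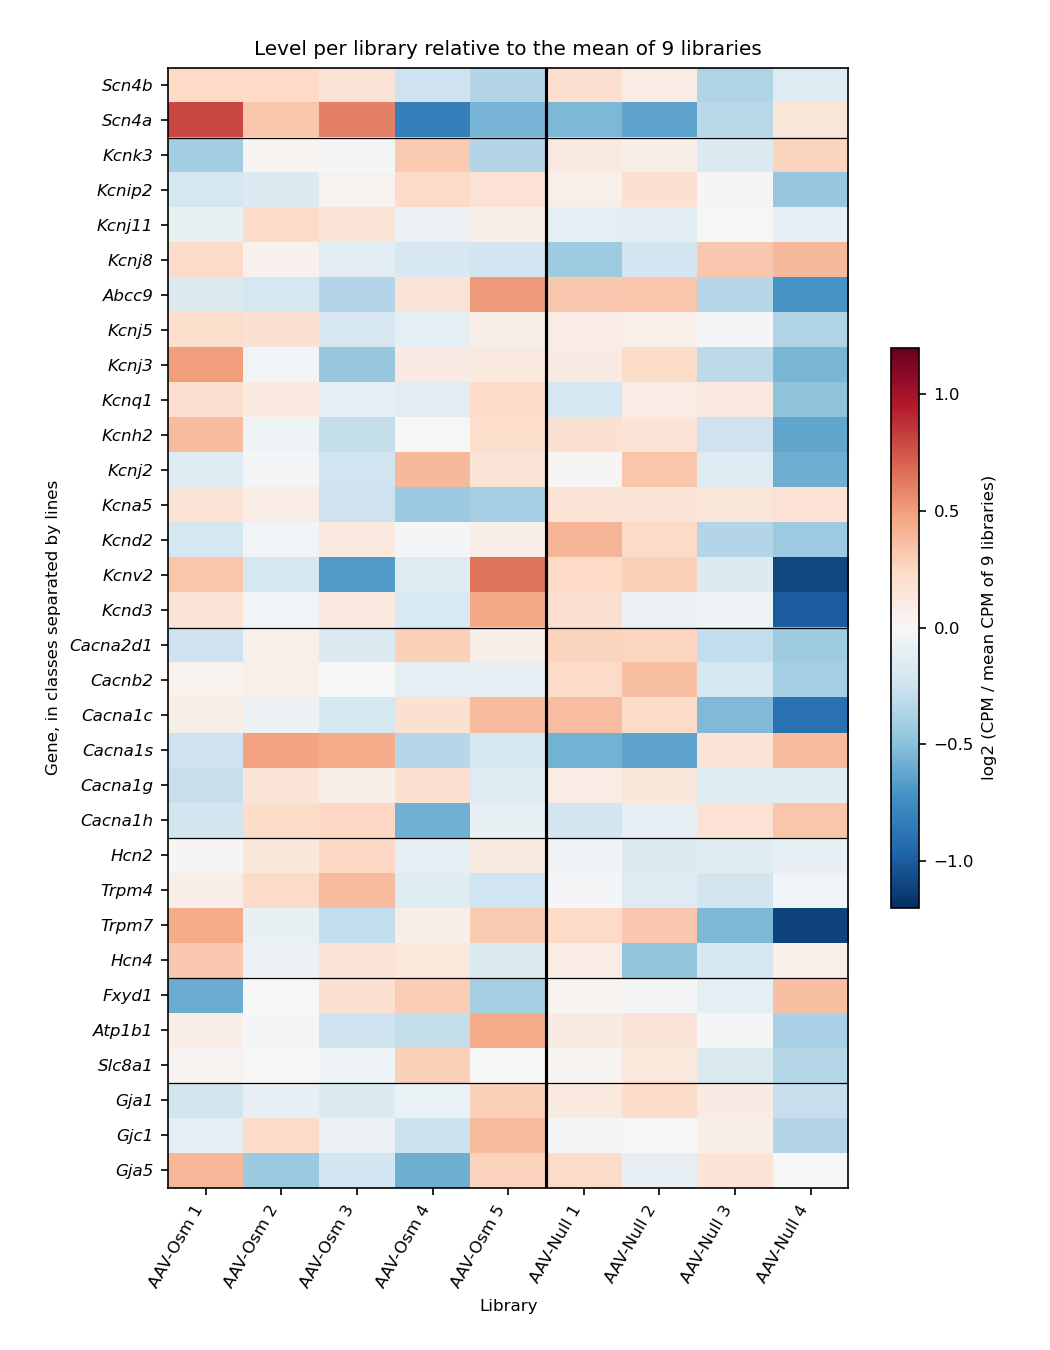
Level of each of the 32 genes in each library as log2 of its CPM over the mean CPM of the 9 libraries, AAV-Osm 1 to 5 left of the line and AAV-Null 1 to 4 right of it. AAV-Null 4 is blue for most channel genes, with exceptions such as Kcnj8, Cacna1s, Fxyd1 and Kcnk3.

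The genes that work beside the members were read from 4 further lists: other channel subunits, other pumps and exchangers, proteins of the intercalated disc, and transcription factors of channel genes. Of 111 listed genes 96 were in the table, and 0 rose and 0 fell in edgeR's test with Benjamini-Hochberg adjustment. By list, 36 of 43 channel subunits, 16 of 21 pumps and exchangers, 25 of 26 disc genes and 19 of 21 transcription factors were in the table, with median log2 fold changes of 0.01, 0.04, 0.03 and -0.01. At an unadjusted p under 0.05 there were 3 of 96 (Kcnk1, Kcnk2 and Lmo7), against 5.97% of all genes. Kcnk2, which encodes a leak channel opened by stretch, was at 3.51, 3.27, 2.5, 2.79 and 2.47 CPM in AAV-Osm, against 4.01, 3.91, 4.28 and 6.46 CPM in AAV-Null. Every AAV-Osm library lay below every AAV-Null library, which was so for 1 of the 96 genes and for 1.23% of all genes. Its log2 fold change was -0.67 (SE 0.21, adjusted p = 0.565, edgeR), and -0.44 without AAV-Null 3 and 4. Kcnk1, another leak channel gene, was at 0.504 ± 0.219 CPM in AAV-Osm and 1.04 ± 0.296 CPM in AAV-Null, with a log2 fold change of -1.04 (SE 0.36, adjusted p = 0.644, edgeR) from 4 to 16 counts per library in AAV-Osm and 15 to 34 in AAV-Null. Lmo7, of the intercalated disc, was at 201 ± 18.4 CPM in AAV-Osm and 158 ± 32.2 CPM in AAV-Null.

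Named from the other lists by their abundance or p, and not past the threshold, were the following. Lrrc10, a cardiac protein that associates with the L-type channel, had a log2 fold change of 0.07 (SE 0.16). Slc12a4 and Slc12a7, potassium-chloride cotransporter genes, were at 0.28 (SE 0.14) and 0.22 (SE 0.14). The disc genes Nexn, Xirp2 and Pkp2 were at -0.11 (SE 0.16), 0.05 (SE 0.18) and 0.27 (SE 0.16). Of the transcription factors, Tbx5 and Irx3, both known to shape the conduction system, were each at 0.28 (SE 0.13 and 0.15), while Gata4 and Hopx were at -0.08 (SE 0.16) and -0.11 (SE 0.15). The smallest adjusted p among these 10 genes was 0.843 (Tbx5, edgeR).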

How the data were processed

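RNA from the heart apex was sequenced, per the labels' protocols, from mRNA-enriched KAPA libraries as 75 base paired ends. The deposited table holds unnormalized counts for each gene, made with STAR 2.5.2b, featureCounts and Subread 1.5.1 on mm10, per the submitters' processing notes; the sources used here give neither its annotation and strand setting nor how multi-mapping reads were treated. It also gives each gene's summed exon length (another kind of value, in bases). There were 13192 named genes, all above 0.5 CPM in at least 4 libraries; 4141 blank lines were left out. Of the 5 AAV-Null samples that the design text counts, 4 were analysed here.

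AAV-Osm was compared with AAV-Null with edgeR 4.0.16 in R 4.3.3 (TMM scaling, robust quasi-likelihood F test, two-sided, Benjamini-Hochberg adjustment over 13192 genes, threshold 0.05); filterByExpr removed 0 genes. CPM values are TMM-scaled, RPKM is CPM per kilobase, errors are SD between libraries, and the 95% intervals use the test's own degrees of freedom. The script was tested on simulated data. Alternatives (20) were DESeq2 1.42.0, limma 3.58.1 voom with and without sample quality weights, other scalings and filters, each library left out, and 2 pairs of libraries left out. Library numbers are names only and pair no samples. Before replicates were averaged, the 36 pairs of libraries were compared by chi-square over genes with at least 10 counts. No pair was identical (0 of 36), and chi-square over its degrees of freedom was at least 6.52, so each library was counted separately.

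Promoter windows of 250 bases before start sites came from RefSeq (GRCm38.p6, the assembly of mm10); 24 of the 32 genes matched, and Kcnj11, Kcnq1, Kcnk3, Kcnv2, Cacna1g, Cacna1h, Trpm4 and Gjc1 have no window shown. Overlaps of exons were read from GENCODE M21. The members and all lists (4 of related genes, 12 of cell type markers) were chosen with earlier results of these data known. The naming rule took all members and, of each related list, genes past the threshold or else the 2 most abundant and the 2 with the smallest p; 3 genes it includes are not reported here.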

Additional observations from a re-analysis of the deposited data

Results flagged for a closer look

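In 90 groups of 4 or 5 libraries of 45 genes, a library lay far from the others of its group 6 times by Dixon's criterion at 95%, and chance gives about 1 in 20 groups. Of the 32 channel, pump and connexin genes, 2 were among these. AAV-Osm 4 was the highest of its group for Slc8a1 at 279 CPM, where the others ran from 222 to 234 CPM. AAV-Osm 5 was the highest for Gja1 at 347 CPM, where the others ran from 244 to 268 CPM. Among the related genes, AAV-Osm 4 was the lowest of its group for Slc12a7 at 95.2 CPM, with the others from 126 to 134 CPM. AAV-Null 4 was the highest of its group for Lrrc10 at 165 CPM (others 147 to 149) and for Kcnk2 at 6.46 CPM (others 3.91 to 4.28). AAV-Null 3 was the highest for Pkp2 at 122 CPM (others 79.1 to 84.4). The causes were not tested.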

How the results depend on the processing

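The count of the 32 genes past the threshold stayed at 0 under all 20 alternatives. Of 639 alternative log2 fold changes of the 32 genes, 70 had the opposite sign to the main value, and 12 genes kept their sign throughout; the cause was not tested. The smallest adjusted p was 0.0903, for Scn4a at 0.77 (SE 0.23) with limma-voom and sample quality weights, where Cacna1s was at 0.66 (SE 0.20, adjusted p = 0.0940). In that setting 5 of the 32 genes had an unadjusted p under 0.05 (Gja1, Hcn2 and Kcnj11 beside these), against 25.2% of all genes. Over all genes 16 passed in edgeR, 53 in DESeq2, 170 with sample quality weights, and 4 to 11 with a library left out. Of the 96 related genes 1 passed with sample quality weights, Fxyd5, against 1.29% of all genes. Fxyd5 was at 0.78 there (adjusted p = 0.0425, limma), and it was named after its values were seen. In the main edgeR test Fxyd5 was at 0.35 (SE 0.25, adjusted p = 0.934), and its groups overlapped. The highest library for Fxyd5 was AAV-Null 4, at 61.5 CPM.

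The log2 fold changes of opposite sign were these. Leaving out AAV-Null 3 with AAV-Null 4 gave Scn4b -0.12, Kcnip2 -0.10, Kcnj2 -0.14, Kcnj3 -0.08, Kcnj5 -0.04, Kcnj8 0.28, Abcc9 -0.31, Kcnh2 -0.10, Kcnv2 -0.19, Cacna1c -0.21, Cacna1g -0.11, Cacna1h 0.11, Cacna2d1 -0.25, Trpm7 -0.16, Slc8a1 -0.02, Atp1b1 -0.11 and Xirp2 -0.15. With sample quality weights they were Kcnip2 -0.12, Kcnj2 -0.14, Kcnj3 -0.10, Kcnj8 0.19, Abcc9 -0.33, Kcnh2 -0.09, Kcnv2 -0.27, Cacna1c -0.15, Cacna1g -0.04, Cacna1h 0.11, Cacna2d1 -0.17, Trpm7 -0.12, Slc8a1 -0.004, Atp1b1 -0.15 and Xirp2 -0.02. Leaving out AAV-Null 4 with AAV-Osm 5 gave Kcnip2 -0.10, Kcnj2 -0.06, Kcnj5 -0.01, Kcnj8 0.07, Abcc9 -0.27, Kcnh2 -0.01, Kcnv2 -0.25, Cacna1c -0.07, Cacna2d1 -0.10, Atp1b1 -0.19, Fxyd1 0.04 and Gjc1 -0.06. With total counts only they were Cacna1g -0.03, Cacna2d1 -0.02 and Xirp2 -0.01, and with voom without weights Kcnd2 0.03.

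With a library left out, the lowest and highest log2 fold changes of the genes that took both signs were -0.02 and 0.16 for Scn4b, -0.13 and 0.15 for Kcnd2, -0.06 and 0.14 for Kcnip2, -0.03 and 0.26 for Kcnj2, -0.01 and 0.14 for Kcnj5, -0.23 and 0.03 for Kcnj8, and -0.12 and 0.20 for Abcc9. They were -0.05 and 0.31 for Kcnv2, -0.03 and 0.09 for Cacna1g, -0.17 and 0.08 for Cacnb2, -0.08 and 0.14 for Cacna2d1, -0.08 and 0.11 for Atp1b1, -0.01 and 0.18 for Lrrc10, -0.04 and 0.17 for Xirp2, and -0.17 and 0.01 for Gata4. No paired analysis was possible because the labels carry no replicate numbers that the groups share. Hcn4 was tested in 10 to 25 counts per library and lay outside the filter of more than 1 CPM in at least 4 libraries, so its differences are limited by depth. The 9 libraries come without a batch label, and the sign of 16 of the 32 genes depends on AAV-Null 3 and 4.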
